A study of Homo sapiens with 8 samples.

Results

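The 43 genes described here make up the folding, sensing and disposal machinery of the endoplasmic reticulum (ER), the compartment in which secreted and membrane proteins are folded. They were chosen by name from a table of 58884 genes and sorted by role into 9 sensors with their proteases and transcription factors, 11 chaperones and calnexin cycle proteins, 9 disulfide enzymes and 14 factors of ER-associated degradation (ERAD). Messenger RNA was measured in C4-2, a castration-resistant human prostate cancer cell line derived from LNCaP. The DTHIB group held 4 libraries of cells kept for 48 h with 1 µM DTHIB, also called E12, which the submitters describe as a direct inhibitor of the heat shock transcription factor HSF1. The DMSO group held 4 libraries of cells kept with the solvent alone, and both groups grew in the same serum-containing medium. C4-2 is a single line, and the labels leave unsaid whether the replicates are separate cultures; the p-values therefore measure only how far these libraries spread, which may be technical.

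When unfolded proteins build up in the ER, the transmembrane sensors IRE1, ATF6 and PERK release the chaperone BiP and start the unfolded protein response. IRE1, encoded by ERN1, splices the XBP1 transcript, ATF6 is cut in the Golgi by the site proteases to free its transcription factor part, and both factors raise chaperone, oxidase and ERAD genes through promoter elements such as the ER stress response element. In ERAD a misfolded glycoprotein has its mannoses trimmed, is recognised by lectins, passes to the SEL1L and HRD1 ubiquitin ligase and is pulled into the cytosol by the ATPase VCP. Prostate epithelium is a secretory tissue, and its luminal cells depend on this machinery. Gene-level counts do not show XBP1 splicing, ATF6 cleavage or protein amounts.

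Library depth was 27229291 to 29159387 reads in DTHIB and 29499458 to 30926053 reads in DMSO, and 17194 genes with a mean of at least 10 normalized counts were tested. Pearson's r of log2 values across all tested genes was 0.9926 to 0.9943 within groups and 0.9732 to 0.9811 between them. All 10 luminal prostate markers were expressed, with a summed level of 309799 to 313432 normalized counts in DTHIB and 247787 to 252601 in DMSO; 7 rose, and HOXB13 (log2 change -0.22), KRT8 (-0.35) and KRT18 (-0.11) fell. Basal markers summed to 26.0 to 31.3 in DTHIB and 35.1 to 52.1 in DMSO with KRT15 lower, neuroendocrine markers to 85.4 to 93.9 in DTHIB and 71.1 to 89.1 in DMSO with INSM1 at 0 in every library, SYP higher and NCAM1 lower, and blood cell markers to 23.9 to 41.9 in DTHIB and 27.98 to 44.1 in DMSO with LYZ lower. Stromal markers summed to 1221 to 1464 normalized counts in DTHIB and 989 to 1100 in DMSO, nearly all of it COL1A1, which rose to a mean of 1290 in DTHIB, against 962 in DMSO, while ACTA2 fell to 39.0 in DTHIB, against 77.6 in DMSO. The part of these marker differences in the results on ER genes was not tested.

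Of the 43 members, 41 passed the filter on low values, each with a mean of at least 537.6 normalized counts. With DTHIB, 21 rose and 13 fell, and 7 did not pass the test (limma on log2(normalized count + 1), Benjamini-Hochberg adjusted p under 0.05 over all tested genes). That is 82.9% of the tested members, against 64.6% of all tested genes, of which 31.0% were higher and 33.7% lower in DTHIB. Since the members are well expressed, the nearer background is the 8611 genes with a mean of at least 500, of which 75.8% passed. The 4 DTHIB values lay wholly above the 4 DMSO values in 19 members and wholly below them in 13, and overlapped in 9, where 57.9% of all tested genes had no overlap. That share was not computed for the genes with a mean of at least 500 alone. The changes were small: no member reached 2-fold, and the median absolute log2 change of the changed members was 0.24, against 0.38 for all changed genes and 0.26 for those with a mean of at least 500. In these bulk samples, a change in RNA per cell and a change in the share of cells of one kind cannot be told apart.

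The roles moved in different directions. Sensors and ERAD factors were mostly higher with DTHIB, with 5 of 8 sensors higher and 2 lower (median log2 change 0.18) and 9 of 13 ERAD factors higher and 2 lower (median 0.16). Chaperones were more often lower, with 4 of 11 higher and 6 lower (median -0.16), and disulfide enzymes were divided, with 3 of 9 higher and 3 lower (median 0.02). The counts of lower sensors and lower ERAD factors depended on the processing: under quantile normalization no sensor and 1 ERAD factor was lower. With trends with transcript length and base composition removed, 1 of each was lower and 5 disulfide enzymes were higher. The counts of 6 lower chaperones and 3 lower disulfide enzymes were the same under every alternative. Among all tested genes 31.0% were higher and 33.7% lower, with a median of -0.01. Differences between roles have no test of their own. The summed normalized counts of the chaperones were 190804 ± 3462 in DTHIB and 228814 ± 5151 in DMSO (here and below, SD over n = 4 libraries of a group), or 83.4% of the DMSO level. The ERAD factors summed to 51242 ± 469 in DTHIB and 46290 ± 365 in DMSO, the sensors to 27387 ± 412 in DTHIB and 23622 ± 179 in DMSO, and the disulfide enzymes to 99816 ± 1963 in DTHIB and 103619 ± 1300 in DMSO. A sum is set mainly by its most abundant members.

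**Figure D1:**
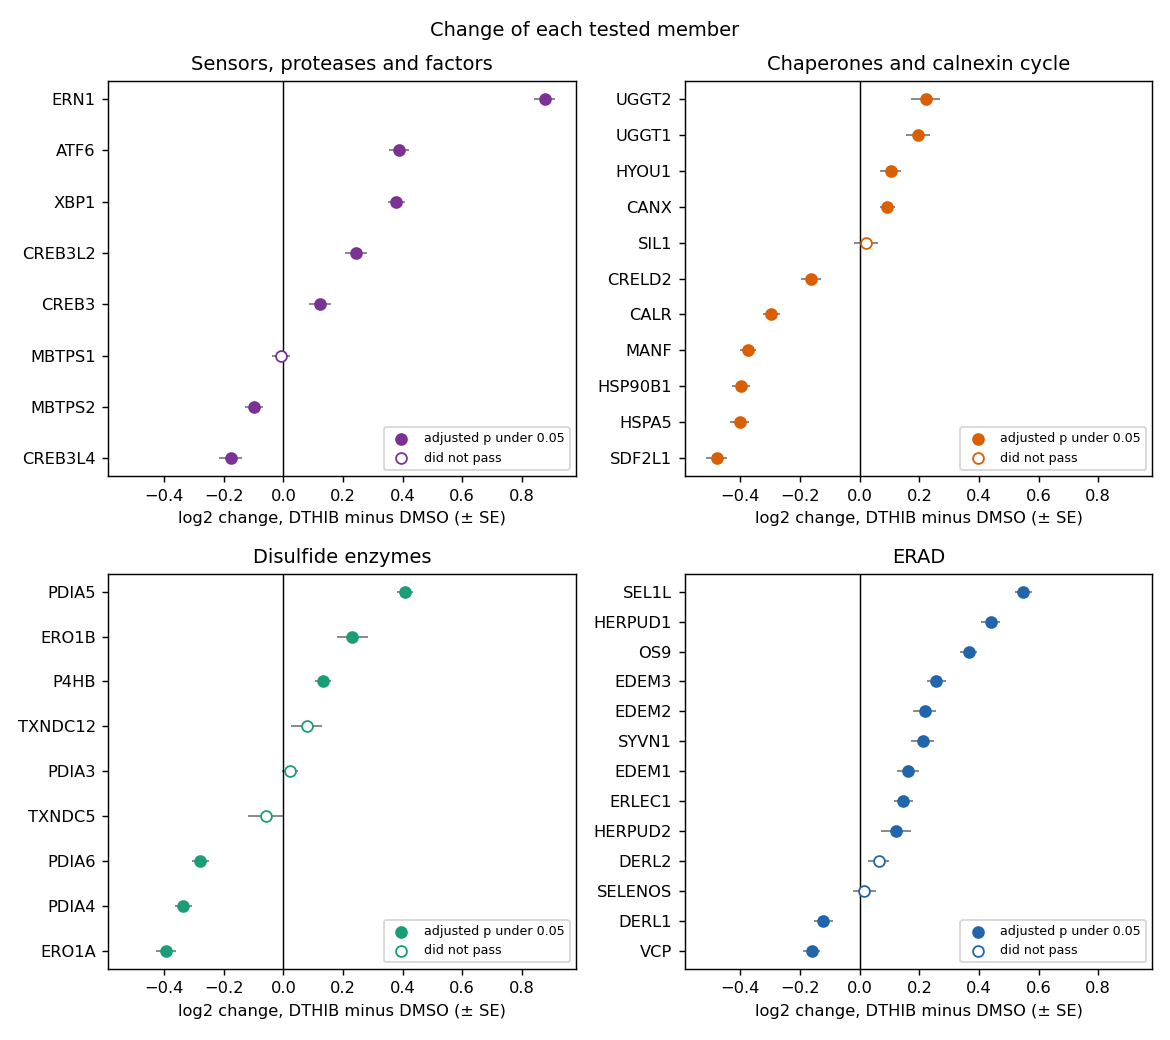
Points give the log2 change (DTHIB minus DMSO) of each of the 41 tested members by role, with bars of ± 1 SE; filled points passed the test and open points did not. ERN1 stands farthest to the right at 0.88, SDF2L1 farthest to the left at -0.48, and most ERAD points lie right of 0.

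Elements of the unfolded protein response were looked for in the members' promoters, because they are the DNA sequences through which ATF6 and XBP1 are known to act. RefSeq promoter windows (GRCh38.p14, 250 bases before to 50 after a transcript start) were matched for 40 members, and PDIA3, DERL1 and DERL3 had none. The ER stress response element ERSE, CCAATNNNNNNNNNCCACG on either strand, was in 8 of these members and in 0.0769% of all 35116 windows. The related ERSE-II, ATTGGNCCACG, was in 3 members and in 0.0541% of windows. The 40 members had 49 windows, which are counted among the 35116. Counts of members and shares of windows are therefore in unlike units. The 11 members that hold one or the other moved both ways. HSPA5, HSP90B1, CALR, CRELD2, PDIA6 and SDF2L1 fell, and XBP1, HYOU1, CANX, ERO1B and HERPUD1 rose. One copy from each is shown with its neighbouring bases so that the shared element can be seen beside opposite changes. Capitals mark the element, each sequence reads 5′ to 3′ on the strand on which the element is written above, and the members that fell come first.
HSPA5, chr9:125241376-125241424, minus strand: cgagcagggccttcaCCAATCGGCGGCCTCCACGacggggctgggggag
HSP90B1, chr12:103930201-103930249, plus strand: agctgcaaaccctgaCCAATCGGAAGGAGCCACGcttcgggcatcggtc
CALR, chr19:12938369-12938417, minus strand: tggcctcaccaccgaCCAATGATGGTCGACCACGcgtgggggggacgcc
CRELD2, chr22:49918539-49918587, minus strand: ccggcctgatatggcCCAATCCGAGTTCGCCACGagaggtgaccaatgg
PDIA6, chr2:10812838-10812886, minus strand: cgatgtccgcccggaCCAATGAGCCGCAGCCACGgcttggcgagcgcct
SDF2L1, chr22:21642099-21642139, minus strand: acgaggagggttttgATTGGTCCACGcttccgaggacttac
XBP1, chr22:28800588-28800636, minus strand: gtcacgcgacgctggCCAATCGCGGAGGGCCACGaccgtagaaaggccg
CANX, chr5:179698763-179698811, plus strand: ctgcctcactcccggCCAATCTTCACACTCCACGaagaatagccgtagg
ERO1B, chr1:236282168-236282208, plus strand: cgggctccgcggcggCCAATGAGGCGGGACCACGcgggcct
HYOU1, chr11:119057259-119057299, plus strand: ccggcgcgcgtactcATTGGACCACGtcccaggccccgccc
HERPUD1, chr16:56932010-56932050, plus strand: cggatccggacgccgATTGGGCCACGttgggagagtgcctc

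HSP90B1 and HYOU1 each hold a second copy of their element in the same window. The UPRE core bound by XBP1, TGACGTGG, was in HYOU1, where it overlaps an ERSE-II, in TXNDC5 and in VCP, and in 0.729% of all windows. Such a match is a description of the letters and not a sign that a factor was bound in these cells.

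Among the sensors and their factors, both stress sensors of the list that passed the filter on low values rose. ERN1 (ENSG00000178607, chr17:64039142-64130819, minus strand), the kinase and endonuclease IRE1, had 1774, 1845, 1749 and 1806 normalized counts in DTHIB, against 974, 987, 972 and 974 in DMSO. Every DTHIB library stood far above every DMSO library, at 184% of the DMSO mean, a log2 change of 0.88 (SE 0.035; limma adjusted p = 8.3e-13) and the greatest of any tested member. ATF6 (ENSG00000118217, chr1:161766294-161964070, plus strand), the sensor that is itself a latent transcription factor, had 3066, 2955, 2875 and 2953 in DTHIB, against 2220, 2365, 2230 and 2248 in DMSO. The groups did not overlap, and ATF6 rose by 0.39 on the log2 scale (SE 0.033; limma adjusted p = 1.9e-08). XBP1 (ENSG00000100219, chr22:28794555-28800597, minus strand), the substrate of IRE1, had 9129, 8894, 8694 and 8737 in DTHIB, against 6867, 6665, 6905 and 6814 in DMSO. It too separated the groups, with a log2 change of 0.38 (SE 0.027; limma adjusted p = 2.1e-09).

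The basic leucine zipper factors of the CREB3 family, which are cut in the Golgi like ATF6, moved both ways. CREB3L2, which drives genes of the secretory pathway, had 4102, 4460, 4389 and 4263 normalized counts in DTHIB, against 3473, 3595, 3627 and 3847 in DMSO, and rose by 0.24 on the log2 scale (limma adjusted p = 1.4e-05). CREB3L4, the member known for its high expression in prostate, had 3250, 3284, 2942 and 3188 in DTHIB, against 3624, 3772, 3439 and 3481 in DMSO. All DTHIB values were below all DMSO values, and CREB3L4 fell by 0.18 (limma adjusted p = 0.00074), a call that was lost under quantile normalization (-0.09, adjusted p = 0.0635). CREB3, the founding member, rose by 0.12 (limma adjusted p = 0.0083). Its exons overlap those of TLN1 and GBA2 on the opposite strand, and the sources used here do not say whether reads were counted by strand.

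The site proteases that release these factors changed little. MBTPS1, the site-1 protease, had 2972, 3026, 2970 and 2931 normalized counts in DTHIB, against 3007, 2946, 2928 and 3077 in DMSO, and the groups overlapped (log2 change -0.01, limma adjusted p = 0.85). MBTPS2, the site-2 protease, had 2087, 2036, 2055 and 2062 in DTHIB, against 2167, 2215, 2201 and 2245 in DMSO. Here the DTHIB values were all lower, with a log2 change of -0.10 (limma adjusted p = 0.0084). This call was lost under quantile normalization (-0.02, adjusted p = 0.64), and the sign turned, to 0.01, when trends with transcript length and base composition were removed (adjusted p = 0.813). Exons of MBTPS2 share 1195 bases with YY2 and a Y RNA gene on the same strand, so part of its count is uncertain. ATF6B, the paralog of ATF6, held 5.2, 1.0, 8.0 and 5.0 normalized counts in DTHIB and 0, 1.9, 0 and 0 in DMSO and was under the filter of the main test. Of its 15 protein-coding neighbours within 100 kb, 14 also had a mean under 10 and 12 were listed at 0 in all 8 libraries, so that its level cannot be read as expression.

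**Figure D2:**
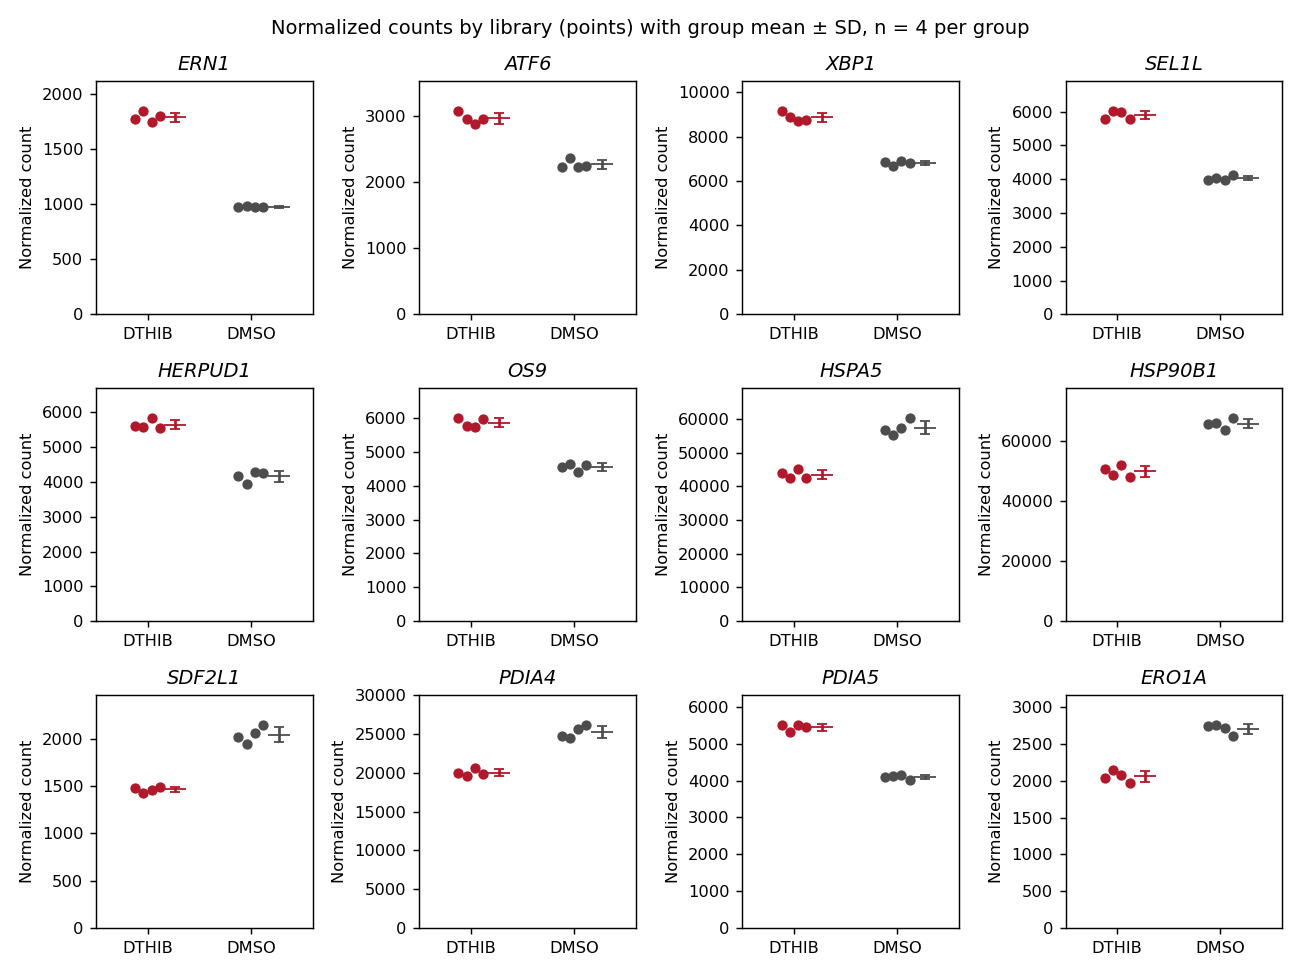
Each panel gives 1 member's normalized counts in the 4 DTHIB and 4 DMSO libraries (points), with the mean ± SD of each group beside them, on axes that start at 0. The groups are apart in every panel: DTHIB is above DMSO for ERN1, ATF6, XBP1, SEL1L, HERPUD1, OS9 and PDIA5, and below it for HSPA5, HSP90B1, SDF2L1, PDIA4 and ERO1A.

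The most abundant lumenal chaperones were lower with DTHIB. HSPA5 (ENSG00000044574, chr9:125234853-125241330, minus strand), the ER HSP70 called BiP that also holds the stress sensors inactive, had 43857, 42442, 45084 and 42421 normalized counts in DTHIB, against 56777, 55301, 57392 and 60157 in DMSO. The highest DTHIB library stayed under the lowest DMSO library, and HSPA5 fell by 0.40 on the log2 scale (SE 0.032; limma adjusted p = 8.2e-09). HSP90B1 (ENSG00000166598, chr12:103930107-103953645, plus strand), the ER HSP90 called GRP94, had 50689, 48759, 52066 and 48127 in DTHIB, against 65593, 66083, 63775 and 67584 in DMSO. Its fall, 0.40 (SE 0.031; limma adjusted p = 7.5e-09), was of the same size as that of HSPA5.

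Small partners of these chaperones fell as well. SDF2L1 (ENSG00000128228, chr22:21642261-21644298, plus strand), a cofactor of ER J-proteins, had 1481, 1431, 1463 and 1489 normalized counts in DTHIB, against 2023, 1951, 2062 and 2147 in DMSO. With no overlap it fell by 0.48 on the log2 scale (SE 0.036; limma adjusted p = 4.1e-09), the greatest fall of any tested member. MANF (ENSG00000145050, chr3:51385047-51389397, plus strand), a stress-induced protein that binds BiP, had 5680, 5499, 5600 and 5753 in DTHIB, against 7348, 7123, 7322 and 7443 in DMSO, and fell by 0.38 (SE 0.027; limma adjusted p = 2.7e-09). CRELD2, another secreted ER stress protein, fell by 0.16 (limma adjusted p = 0.00038). The nucleotide exchange factors of BiP did not share this direction. HYOU1, a large HSP70 relative, had 11833, 12569, 13010 and 12364 in DTHIB, against 11757, 10782, 11809 and 11968 in DMSO. Its groups overlapped, and the log2 change of 0.10 (limma adjusted p = 0.018) missed the threshold once DTHIB replicate 3 was left out (adjusted p = 0.058) or DMSO replicate 2 (adjusted p = 0.0777). SIL1, the other exchange factor, had 2050 ± 106 in DTHIB and 2020 ± 83.7 in DMSO and did not pass the test (log2 change 0.02, limma adjusted p = 0.68).

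The lectin chaperones of the calnexin cycle parted. CALR (ENSG00000179218, chr19:12938578-12944489, plus strand), the soluble lectin calreticulin, had 39957, 38219, 38578 and 39723 normalized counts in DTHIB, against 47075, 47297, 48245 and 49525 in DMSO. It fell by 0.30 on the log2 scale (limma adjusted p = 8.5e-08). CANX (ENSG00000127022, chr5:179678628-179730925, plus strand), its membrane-bound counterpart calnexin, had 28433, 27675, 28691 and 27873 in DTHIB, against 26138, 26139, 26349 and 27028 in DMSO. All DTHIB values were higher, by a log2 change of only 0.09 (limma adjusted p = 0.0051). UGGT1 and UGGT2, the glucosyltransferases that send unfinished glycoproteins back into the cycle, rose by 0.20 and 0.22 (limma adjusted p = 0.00039 and 0.00064).

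The disulfide isomerases, thioredoxin-fold proteins that make and rearrange disulfide bonds in the ER, were divided. PDIA4 (ENSG00000155660, chr7:149003062-149028641, minus strand), the isomerase ERp72, had 19982, 19579, 20613 and 19840 normalized counts in DTHIB, against 24675, 24538, 25617 and 26149 in DMSO. It fell by 0.34 on the log2 scale (SE 0.029; limma adjusted p = 2.4e-08). PDIA6 (ENSG00000143870, chr2:10783391-10837977, minus strand), an isomerase also known for binding IRE1, had 11699, 11168, 12150 and 11555 in DTHIB, against 14371, 13757, 14086 and 14256 in DMSO, and fell by 0.28 (limma adjusted p = 3e-07). PDIA5 (ENSG00000065485, chr3:123067062-123225227, plus strand), an isomerase known for acting on ATF6, went the other way, with 5500, 5309, 5510 and 5461 in DTHIB, against 4108, 4118, 4164 and 4030 in DMSO. Its rise of 0.41 (SE 0.027; limma adjusted p = 9e-10) was the greatest among the disulfide enzymes. Exons of PDIA5 share 576 bases with SEC22A and a microRNA on the same strand, so part of its count is uncertain.

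P4HB and PDIA3, whose counts were the highest of the disulfide enzymes in DTHIB and in DMSO, had small changes. P4HB, the founding isomerase PDI, had 29836, 29746, 30150 and 29754 normalized counts in DTHIB, against 27531, 26406, 27500 and 27505 in DMSO, and rose by 0.13 on the log2 scale (limma adjusted p = 0.00025). PDIA3, the isomerase ERp57 that works with the calnexin cycle, had 29497, 28184, 29898 and 28055 in DTHIB, against 28463, 28488, 28361 and 28469 in DMSO. The DTHIB values lay on both sides of the DMSO values (log2 change 0.02, limma adjusted p = 0.49), and among the settings tried PDIA3 passed only with the length and composition trends removed (0.12, adjusted p = 0.000246). TXNDC5 had 562 ± 33.5 in DTHIB and 586 ± 40.4 in DMSO, and TXNDC12 had 552 ± 31.5 in DTHIB and 523 ± 8.77 in DMSO. Neither of these thioredoxin-domain proteins passed the test (limma adjusted p = 0.39 and 0.2). TXNDC12 passed as higher with the length and composition trends removed (log2 change 0.14, adjusted p = 0.0245). Reads of both are uncertain: TXNDC5 shares 2658 of its 4387 exon bases with the read-through gene BLOC1S5-TXNDC5, and TXNDC12 shares 1921 bases with other genes of its strand.

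The ERO1 oxidases, which hand disulfides to the isomerases, moved in opposite directions. ERO1A (ENSG00000197930, chr14:52639916-52695900, minus strand), known as a hypoxia-responsive oxidase, had 2044, 2151, 2086 and 1968 normalized counts in DTHIB, against 2752, 2761, 2716 and 2606 in DMSO. It fell by 0.39 on the log2 scale (SE 0.035; limma adjusted p = 3.3e-08). ERO1B (ENSG00000086619, chr1:236215555-236281985, minus strand), the oxidase best known from secretory cells such as those of the pancreas, had 760, 766, 837 and 710 in DTHIB, against 662, 658, 625 and 669 in DMSO. It rose by 0.23 (SE 0.052; limma adjusted p = 0.00093), with no overlap between groups. ERO1A had the higher level in both groups, at 273 ± 10.2 normalized counts per kilobase of exons in DTHIB and 359 ± 9.39 in DMSO. ERO1B stood at 143 ± 9.73 per kilobase in DTHIB and 122 ± 3.65 in DMSO.

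Of the ERAD factors, SEL1L, SYVN1 and HERPUD1 of the HRD1 ligase complex rose, and the derlins, which also belong to it, did not. SEL1L (ENSG00000071537, chr14:81471549-81533861, minus strand), the adaptor that stabilises the ligase and brings substrates to it, had 5791, 6003, 5983 and 5791 normalized counts in DTHIB, against 3986, 4021, 3984 and 4111 in DMSO. The groups lay far apart, at 146% of the DMSO mean, and SEL1L rose by 0.55 on the log2 scale (SE 0.028; limma adjusted p = 2e-11). SYVN1 (ENSG00000162298, chr11:65121780-65134533, minus strand), the ubiquitin ligase HRD1 itself, had 2476, 2865, 2737 and 2699 in DTHIB, against 2337, 2325, 2305 and 2330 in DMSO, and rose by 0.21 (limma adjusted p = 0.00015). Its exons share 461 bases with FAU and a microRNA on the same strand, so part of its count is uncertain. HERPUD1 (ENSG00000051108, chr16:56932048-56944863, plus strand), the short-lived organiser of the complex, had 5604, 5582, 5829 and 5562 in DTHIB, against 4172, 3930, 4297 and 4255 in DMSO. It rose by 0.44 (SE 0.032; limma adjusted p = 2.9e-09). HERPUD2, its relative, had 717, 737, 683 and 687 in DTHIB, against 687, 676, 616 and 620 in DMSO, with overlapping groups. Its log2 change of 0.12 passed narrowly (limma adjusted p = 0.046) and did not pass without any one of DTHIB replicates 1, 2 or 4 or DMSO replicates 3 or 4 (adjusted p = 0.0514 to 0.139), with no filter (0.075) or by DESeq2 (0.0553).

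The lectins and mannosidases that mark a glycoprotein for disposal all rose. OS9 (ENSG00000135506, chr12:57693955-57721557, plus strand), a lectin that reads trimmed mannoses, had 5996, 5764, 5733 and 5983 normalized counts in DTHIB, against 4558, 4650, 4402 and 4610 in DMSO, and rose by 0.37 on the log2 scale (SE 0.029; limma adjusted p = 9e-09). ERLEC1, the second lectin, had 2351, 2253, 2317 and 2260 in DTHIB, against 2042, 2069, 2043 and 2146 in DMSO, and rose by 0.15 (limma adjusted p = 0.00077). EDEM3 (ENSG00000116406, chr1:184690231-184754913, minus strand), a mannosidase of the EDEM family, had 4916, 5075, 4928 and 4824 in DTHIB, against 4148, 4209, 3907 and 4256 in DMSO. It rose by 0.26 (SE 0.032; limma adjusted p = 1.9e-06), and its relatives EDEM2 and EDEM1 rose by 0.22 and 0.16 (limma adjusted p = 0.00013 and 0.00089). None of these 5 genes had overlapping groups.

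The factors that carry substrates out of the ER did not share this rise. VCP, the cytosolic ATPase that extracts ubiquitinated proteins, had 12795 ± 326 normalized counts in DTHIB and 14306 ± 360 in DMSO and fell by 0.16 on the log2 scale (limma adjusted p = 0.0001). DERL1 (ENSG00000136986, chr8:123013164-123042423, minus strand), a derlin that forms part of the exit channel, had 2714, 2603, 2620 and 2577 in DTHIB, against 2833, 2965, 2858 and 2789 in DMSO. It fell by 0.12 (limma adjusted p = 0.0027), a call that was lost under quantile normalization (-0.04, adjusted p = 0.28) and with the length and composition trends removed (-0.05, adjusted p = 0.162). DERL2, the second derlin, had 1800, 1713, 1768 and 1714 in DTHIB, against 1681, 1678, 1723 and 1614 in DMSO. Its groups overlapped and it did not pass the test (log2 change 0.06, limma adjusted p = 0.12), though it passed as higher under TMM rescaling (adjusted p = 0.0467), quantile normalization (0.000628), edgeR (0.0377) and removal of the length and composition trends (9.71e-05). SELENOS, a selenoprotein that links VCP to the derlins, had 1794 ± 42.0 in DTHIB and 1776 ± 76.0 in DMSO (log2 change 0.02, limma adjusted p = 0.72). DERL3 was listed at 0 in all 8 libraries, as were 3 of its 9 protein-coding neighbours within 100 kb, so nothing can be said of its expression.

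Related members were compared directly through the log2 ratio of their normalized counts in each library, for 13 pairs named by family or complex. In 9 pairs the ratio separated all DTHIB from all DMSO libraries, each with exact p = 0.0286 (2-sided exact permutation test), the smallest that 70 assignments of 4 and 4 libraries allow, and 0.0413 after Benjamini-Hochberg adjustment over the 13 pairs. Taken singly, 57.9% of all tested genes separated the groups, and the share for ratios of arbitrary gene pairs was not computed. The pairs were chosen with earlier results of these data known. The widest shift was that of the oxidases, whose ERO1A to ERO1B log2 ratio was 1.43 ± 0.077 in DTHIB and 2.05 ± 0.066 in DMSO. The log2 ratio of CREB3L2 to CREB3L4 was 0.44 ± 0.10 in DTHIB and 0.02 ± 0.11 in DMSO. For the lectins, CALR to CANX gave 0.47 ± 0.036 in DTHIB and 0.86 ± 0.012 in DMSO. Within the ligase complex, SEL1L to SYVN1 gave 1.13 ± 0.068 in DTHIB and 0.79 ± 0.020 in DMSO.

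The remaining separated ratios shifted less. HERPUD1 gained on HERPUD2 by 0.32 on the log2 scale (SE 0.074), OS9 on ERLEC1 by 0.22 (SE 0.026) and P4HB on PDIA3 by 0.11 (SE 0.025). The ratio of DERL1 to DERL2 fell by 0.19 (SE 0.021), and that of MBTPS1 to MBTPS2 rose by 0.09 (SE 0.021). The ratio of the site proteases did not pass without DTHIB replicate 2 (exact p = 0.0571). In 4 pairs the ratios overlapped between groups. These were UGGT1 to UGGT2 (-0.03, SE 0.069, exact p = 0.714), EDEM1 to EDEM2 (-0.05, SE 0.040, exact p = 0.229), EDEM1 to EDEM3 (-0.09, SE 0.057, exact p = 0.143) and PDIA4 to PDIA6 (-0.06, SE 0.024, exact p = 0.0857). Without DMSO replicate 2 the ratio of EDEM1 to EDEM3 passed, and without DMSO replicate 1 that of PDIA4 to PDIA6 (exact p = 0.0286 each). For these a difference in response was not detected, which does not show that the members respond alike.

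**Figure D3:**
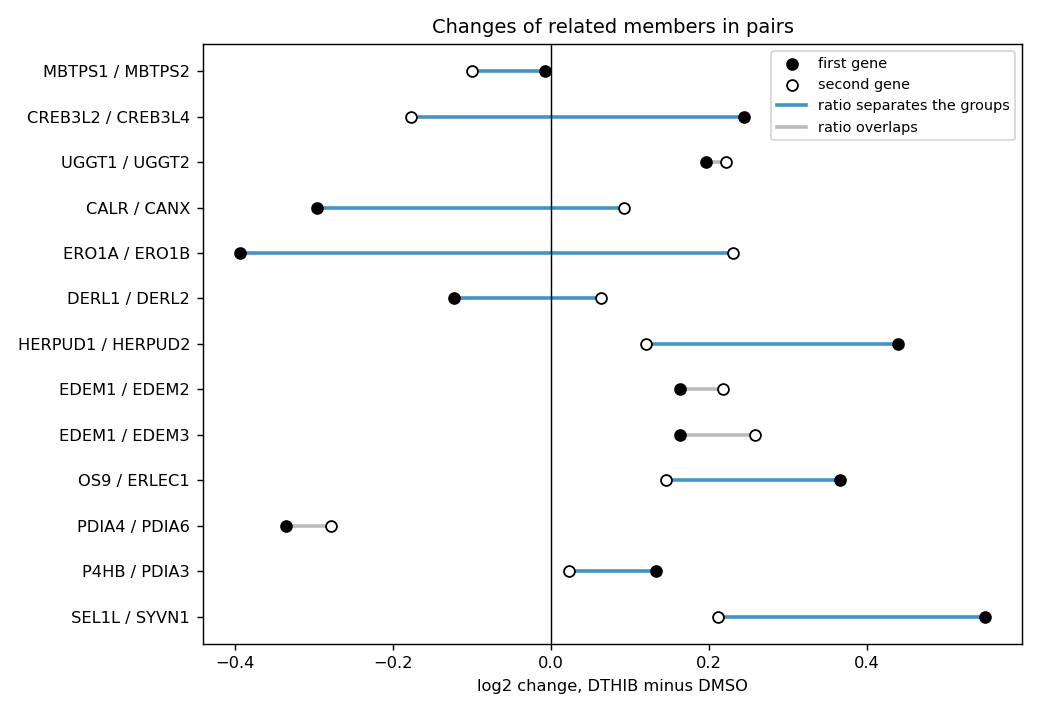
For each of 13 pairs, the log2 change (DTHIB minus DMSO) of the gene named first (filled) and second (open) is joined by a line, blue where the ratio of the 2 genes separates all DTHIB from all DMSO libraries and grey where it does not. The longest line joins ERO1A at -0.39 and ERO1B at 0.23, and the UGGT1 and UGGT2 points nearly coincide.

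Per kilobase of exons, the abundant chaperones and isomerases stood far above the sensors. CALR led with 14414 ± 313 normalized counts per kilobase in DTHIB and 17699 ± 411 in DMSO, followed by HSPA5 with 11118 ± 327 in DTHIB and 14690 ± 520 in DMSO and HSP90B1 with 10631 ± 384 in DTHIB and 14006 ± 335 in DMSO. These 3 kept their order in both groups, and the DMSO ranges of HSPA5 and HSP90B1 overlapped. Below them PDIA3, at 6818 ± 219 in DTHIB and 6709 ± 13.5 in DMSO, and PDIA4, at 6104 ± 134 in DTHIB and 7704 ± 235 in DMSO, changed places. XBP1 stood at rank 8 of 43 in DTHIB and rank 11 in DMSO, SEL1L at rank 21 in DTHIB and 26 in DMSO, and ERN1 at rank 37 in DTHIB, with 165 ± 3.82 per kilobase, and 41 in DMSO, with 89.9 ± 0.63. Of the 10 members with the highest level in DMSO, 2 rose and 7 fell, and of the other 31 tested members 19 rose and 6 fell. Across the 41 tested members Spearman's rho between the DMSO level and the log2 change was -0.40. This is a description over genes that share the same 8 libraries, and the DMSO values enter both axes.

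**Figure D4:**
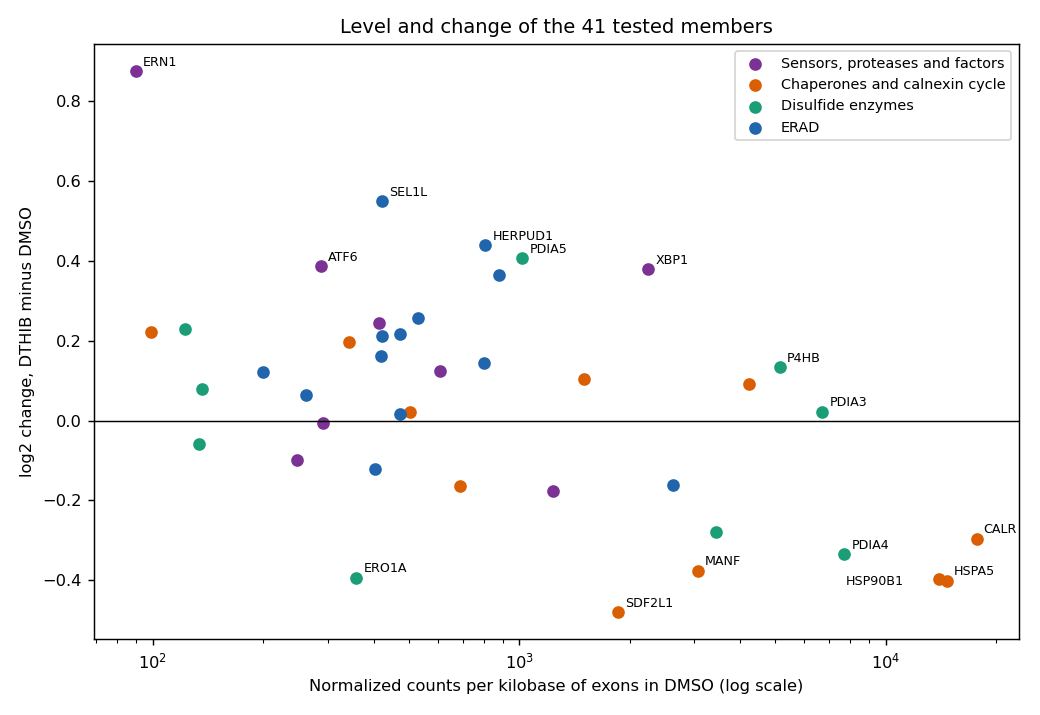
Each point is 1 of the 41 tested members, coloured by role, with its mean normalized count per kilobase of exons in DMSO on a log axis and its log2 change (DTHIB minus DMSO). CALR, HSPA5 and HSP90B1 lie at the lower right, at log2 changes of -0.30 to -0.40, and ERN1 at the upper left, at 89.9 normalized counts per kilobase and 0.88.

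The PERK arm, the third branch of the unfolded protein response, was higher. Of its 8 genes 7 rose and none fell, with a median log2 change of 1.04, against 0.09 for the 41 tested members and -0.01 for all tested genes. Among all tested genes, the background for this list and those below, 31.0% were higher and 33.7% lower in DTHIB. ATF4, the factor translated when PERK phosphorylates eIF2alpha, had 32308, 30812, 32445 and 32322 normalized counts in DTHIB, against 15286, 14200, 15082 and 15022 in DMSO. The pseudokinase TRIB3 rose by 1.49 on the log2 scale, the pro-apoptotic factor DDIT3, called CHOP, by 1.46, and the glutathione-degrading enzyme CHAC1 by 2.75 (limma adjusted p = 7.6e-16, 1.6e-13 and 2.2e-15). Several of these genes also answer to eIF2alpha kinases other than PERK. PERK itself, EIF2AK3, named after its values were seen, had 1587 ± 61.3 in DTHIB and 1486 ± 53.1 in DMSO (log2 change 0.10, limma adjusted p = 0.042). It did not pass without any one of DTHIB replicates 1, 2 or 3 or DMSO replicates 1 or 2 (adjusted p = 0.0645 to 0.141), or with no filter (0.0791). The phosphatase subunit PPP1R15B, also named after its values were seen, had a log2 change of -0.07 (limma adjusted p = 0.073) and was called lower without DTHIB replicate 2 (adjusted p = 0.0449) or DMSO replicate 2 (adjusted p = 0.0445); its sign turned under quantile normalization (0.02) and with the length and composition trends removed (0.01).

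Partners of the chaperones moved both ways. Of 9 ER J-proteins, which feed substrates to BiP, 6 rose and 3 fell. The reductase DNAJC10 rose by 0.61 on the log2 scale, the translocation partner SEC63 by 0.42 and DNAJB9, an IRE1 repressor, by 0.39, and DNAJC3, called p58IPK, fell by 0.27. Of 15 tested other ER thiol enzymes, 6 rose and 8 fell, with the oxidase QSOX1 at 0.52 and the chaperone ERP29 at 0.40 against the transmembrane thioredoxin TMX4 at -0.71 and AGR2, an isomerase of secretory epithelia, at -1.20. AGR2 had 221, 180, 157 and 173 normalized counts in DTHIB, against 390, 399, 450 and 437 in DMSO. Of 13 ER calcium genes 3 rose and 5 fell, with the calcium-binding protein RCN1 at 0.68 and the calcium channel ITPR1 at 0.67 against the calcium sensor STIM1 at -0.26 and the pump ATP2A2 at -0.19.

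Other ERAD factors did not rise as a rule: of 21 tested, 8 rose and 10 fell (6 under quantile normalization). The rhomboid protease RHBDD1 rose by 0.83 on the log2 scale, the VCP cofactors UBXN1 and UBXN4 by 0.32 and 0.24, and the VCP inhibitor SVIP fell by 0.28. Of 18 genes of the translocon and signal peptidase, 7 rose and 4 fell (1 under quantile normalization and 1 with the length and composition trends removed), with the translocon subunits SSR4 at 0.47 and SSR2 at 0.40, the signal peptidase SEC11C at 0.35 and the signal recognition particle receptor SRPRA at 0.24. Of 21 genes for N-glycan transfer and trimming, 10 rose and 6 fell, among them the mannosidase MAN1B1 (0.30), the lectin MLEC (-0.28) and the oligosaccharyltransferase subunits TUSC3 (-0.30) and RPN1 (-0.22).

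At the exits of the ER, 4 of 14 COPII genes rose and 7 fell. MIA3, which loads large cargo such as collagen, rose by 0.51 on the log2 scale and the exit-site scaffold SEC16A by 0.28, and the coat GTPases SAR1A and SAR1B fell by 0.24 and 0.26. Of 8 ER-phagy receptors, which deliver ER to lysosomes, 5 rose and 2 fell, with CCPG1 at 0.77 and CALCOCO1 at 0.76 against ATL3 at -0.29 and TEX264 at -0.26. Over all of these lists, 56 of 127 tested genes rose and 45 fell, a median log2 change of 0.02. That is 79.5% changed, against 64.6% of all tested genes and 75.8% of those with a mean of at least 500. The share pooled over the lists is therefore near what well-expressed genes show in general. Single lists ranged from 61.1% changed (translocon and signal peptidase) to 100% (ER J-proteins).

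**Figure D5:**
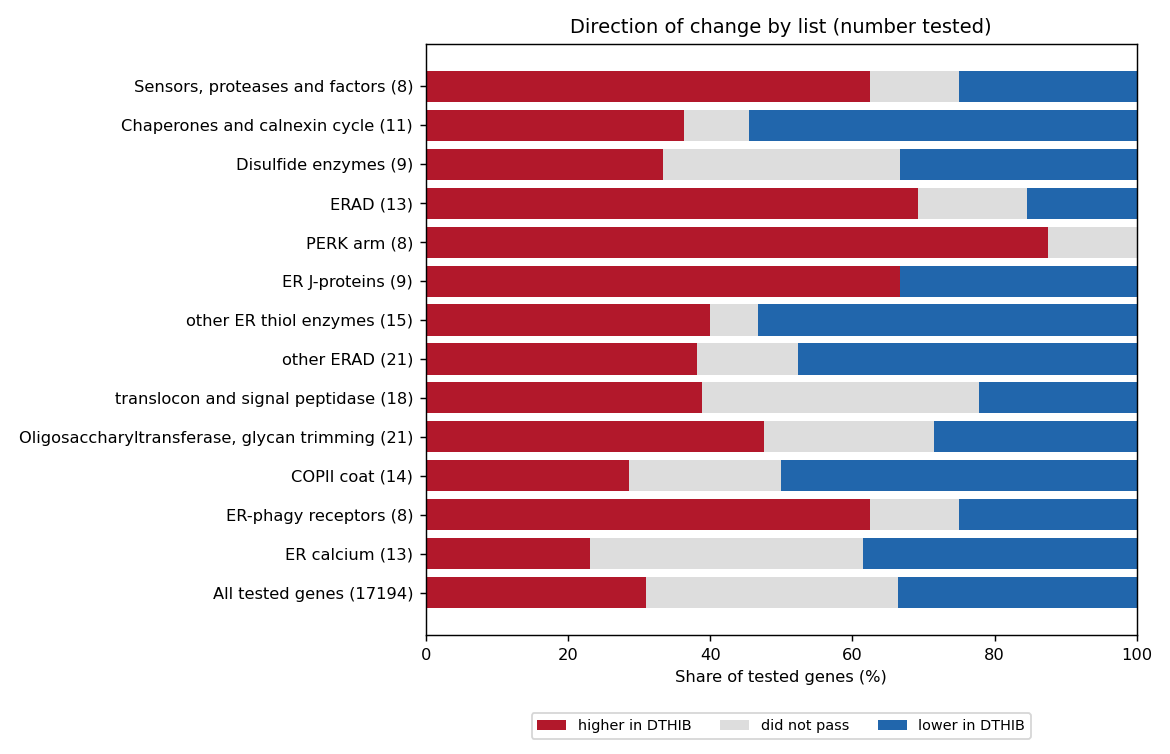
Bars give the share (%) of tested genes that rose with DTHIB (red), did not pass the test (grey) and fell with DTHIB (blue) in each role of the members, in each list of other ER genes and among all 17194 tested genes, with the number tested in brackets. The PERK arm bar holds no blue, the ERAD bar of the members is mostly red, and the bar of other ERAD genes is nearer to that of all tested genes.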

How the data were processed

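Poly(A) RNA of 4 DTHIB and 4 DMSO libraries, grouped by the treatment in their labels, was analysed. The submitters' processing notes name HISAT2 2.1.0, featureCounts 1.6.3, StringTie 1.3.4, Trimmomatic 0.36.5 and DESeq2 2.11.40.2, with GRCh38 as the build; the order of steps, the annotation and the handling of strand and of multi-mapping reads were not given in the sources used here. The values that the authors deposited for each gene and library are a signal, by its name a DESeq2-normalized count, that is, reads over a library's size factor. Another file that the authors deposited gives per gene a mean signal, a log2 fold change with its standard error, a Wald score, a p-value and its adjusted form, used here only as a check. In the authors' deposited table an adjusted p of 0.05 was passed by 34 members, not all of them those that passed here: ATF6B, under the filter of the main fit here, passed there (adjusted p = 0.0225) and HERPUD2 did not (adjusted p = 0.121). With no filter here, ATF6B also passed as higher and HERPUD2 did not pass. Sensors higher then numbered 6, against 5 in the main fit, and ERAD factors higher 8, against 9. The deposited sign was that of the present fit in 99.4% of tested genes.

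Of 58884 gene identifiers, 58472 had a symbol and 58611 a GENCODE 29 position. The test was limma 3.58.1 (R 4.3.3; eBayes with an expression trend, two-sided, without covariates) on log2(normalized count + 1), for genes whose mean was at least 10. Fold changes on this scale understate the change of low genes. In all 8 libraries 100% of values were whole multiples of a single step (tolerance 0.01), which gave back the reads and the depths reported. The deposited values are not themselves whole reads, so the count tests remained alternatives: edgeR 4.0.16 called 11130 genes on the reads and DESeq2 1.42.0 called 10283. Further alternatives changed the pseudocount (0.5, 5), the filter (none, or a mean of 50), the scaling (TMM, quantile), took the replicate number as a block or left out 1 library. Added after seeing the data was a fit with trends with transcript length and base composition removed (splines, 4 degrees of freedom). The fit was tested on simulated data. Libraries of 1 group differed by a mean chi-square of 2.39 to 5.22 per gene, so none is a copy of another. Whether they came from separate cultures cannot be told from this value. The 43 members, the other gene lists and the pairs were chosen with earlier results of these data known. Values of every library are given for the 4 members of each role with the smallest adjusted p, for members of pairs that differed and for a few others, and in each other list up to 4 genes with the smallest adjusted p are named, with exceptions marked.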

Additional observations from a re-analysis of the deposited data

Results flagged for a closer look

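In 5 of the 82 member groups of 4 libraries tested, 1 library stood apart from the other 3 by more than Dixon's 95% critical value, and chance gives about 1 such group in 20. In 4 of the 5 the library was DMSO replicate 2. ERN1 had 986.615 normalized counts there, against 971.534 to 974.013 in the other DMSO libraries, a narrow group in which the gap is small beside the distance to DTHIB. CREB3 had 1125.37, against 1160.77 to 1167.38. P4HB had 26406.1, against 27500.1 to 27531.0. EDEM1 had 2647.88, against 2894.26 to 2924.98. In DTHIB replicate 3, HERPUD1 had 5829.38, against 5562.44 to 5604.49 in the other DTHIB libraries. All 5 genes passed the test in the same direction without the library named.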

How the results depend on the processing

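Members higher and lower numbered 21 and 13, and 20 to 25 and 10 to 13 under the alternatives, with quantile normalization (25 and 10) and removal of the length and composition trends (24 and 11) farthest off; leaving out 1 library gave 20 to 21 and 13. All genes called numbered 9483 to 11557 under the alternatives that kept all libraries and 10367 to 10893 with 1 left out, and the median of all genes shifted by at most 0.03. The 2 lower sensors became 0 under quantile normalization and 1 with the length and composition trends removed, the 3 higher disulfide enzymes became 5 after that removal, and the 2 lower ERAD factors became 1 under both; the cause was not tested. Among the genes named, signs turned for these, all near 0: MBTPS1 (0.00675 with TMM, 0.0725 with quantile normalization, 0.0066 with edgeR, 0.00714 with DESeq2, 0.0144 without the trends; -0.0171 to 0.00683 with 1 library left out, the highest without DMSO replicate 4), MBTPS2 (0.00884 without the trends), SIL1 (-0.00616 without the trends; -0.00501 without DTHIB replicate 4 and -0.00472 without DMSO replicate 2, in a range up to 0.0458), SELENOS (-0.00801 without DMSO replicate 2, in a range up to 0.0349) and, outside the members, PPP1R15B (0.0169 with quantile normalization, 0.0102 without the trends). Under quantile normalization MBTPS1, SIL1 and SELENOS passed as higher (adjusted p = 0.0377, 0.0327 and 0.0225).

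No pairing by replicate number was detected, as deviations of same-numbered libraries correlated at -0.07, 0.01, 0.01 and 0.00. This does not show that the libraries were handled without pairing. With the replicate number as a block, 21 members were higher and 13 lower and 11058 genes were called. The pair comparisons gave 8 to 10 passing pairs with 1 library left out and 9 with a pseudocount of 5; as a block, sign flips of 4 numbered differences cannot go below 0.125 and so passed 0. ATF6B and DERL3 had counts too low for the main test, and the cause was not tested.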
